A study of Mus musculus with 4 samples.

Results

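Ubiquitin-specific proteases, the largest family of deubiquitinating enzymes, were followed on heart arrays of mice carrying a floxed Rhau gene. A gene was a member when its symbol was Usp followed by a number and at most 1 letter and a probe set of the array was assigned to that symbol alone. This gave 48 genes of 18193, with 122 probe sets between them, and each gene was represented by its brightest probe set. The tested mice were CAAG-ERT2-Cre;Rhau F/F (2 arrays labelled Rhau KO) and their references were Rhau F/F littermates without Cre (2 arrays labelled Control). Every animal was of the C57BL/6J strain, received 5 doses of tamoxifen at 2 months of age and was sampled as an adult 2 months after it, so tamoxifen was common to both groups and the Cre cassette was not. The ERT2-Cre line is not restricted to cardiomyocytes, and heart RNA mixes all of its cell types, so that fewer cells of a type and less RNA per cell cannot be told apart. The labels do not say that replicates were separate animals, so a p-value reflects no more than how far these arrays spread.

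Ubiquitin is attached to proteins by a cascade of E1, E2 and E3 enzymes, and deubiquitinases take it off again. Most members of the Usp family are cysteine proteases that use a conserved catalytic domain to cut the bond between ubiquitin and its substrate or between ubiquitins of a chain. By doing so they spare proteins from the proteasome, recycle ubiquitin, sort receptors at endosomes and edit the ubiquitin marks of histones. In striated muscle, where protein turnover sets muscle mass, members such as Usp19 and a muscle isoform of Usp25 are known from earlier work.

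Dhx36, which encodes RHAU, went against the labels. On its brightest probe set it read 568 and 537 (MAS 5.0 intensity, arbitrary units, here and below) on arrays labelled Rhau KO and 327 and 194 on arrays labelled Control, so every direction below is one between labels. Control replicate 1 stood apart. Of 20 ventricular cardiomyocyte markers 13 were over 2-fold below the median of the other 3 arrays in it, with Tnni3 (cardiac troponin I) at 10.3, and of 21 skeletal muscle markers 18 were over 2-fold above. Their median intensity was 71.6 and 47.8 on arrays labelled Rhau KO, with 36644 for Control replicate 1 and 70.6 for Control replicate 2. All 5 endothelial and all 5 macrophage markers were lowest in Control replicate 1. Control replicate 2 read highest of the 4 arrays for all 10 heat shock genes examined. Differences are therefore given with all 4 arrays and, for most genes named, also without Control replicate 1, and the part of muscle or heat shock transcripts in any result was not tested.

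Arrays labelled Rhau KO differed little from each other across the family, and the arrays labelled Control differed widely. The median gap between replicates over the 48 members was 0.15 log2 units between the arrays labelled Rhau KO and 0.61 between those labelled Control, against 0.27 and 0.65 over all genes. The latter include more dim genes. With a mean intensity over 100, the gaps were 0.14 and 0.61 for members, against 0.15 and 0.53 for all such genes. Only 3 members, Usp29, Usp26 and Usp44, were over 2-fold apart between the arrays labelled Rhau KO, and all 3 were dim. Between the arrays labelled Control 15 members were. For 28 of the 41 members with a mean intensity over 100, the arrays labelled Rhau KO and Control replicate 2 lay within 1.5-fold of one another. The shares of all genes were not taken for these counts, which are therefore not a trait of the family.

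**Figure D1:**
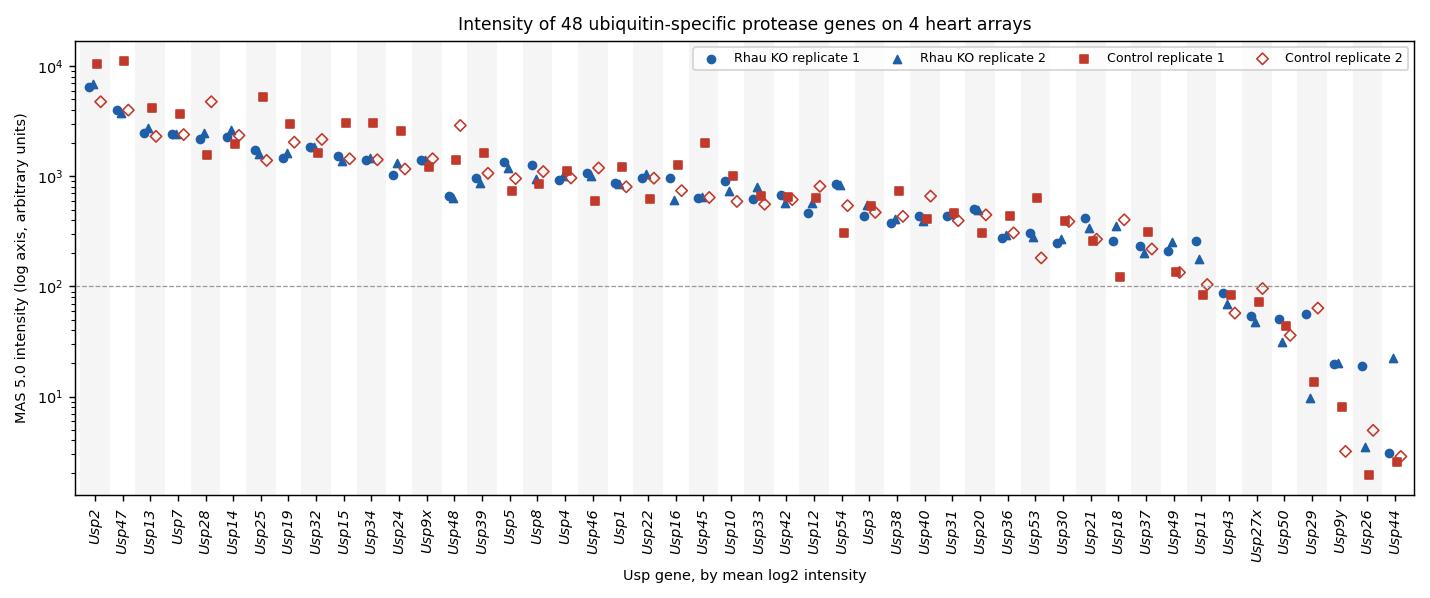
Readings of the representative probe set of each of the 48 genes (MAS 5.0 intensity in arbitrary units, log axis), ordered by mean log2 intensity, arrays labelled Rhau KO being blue and those labelled Control red; the dashed line marks 100. Control replicate 1 (filled square) is the highest array for 20 of the 48 genes, among them Usp47 at 11093 and Usp25 at 5285, while Usp48 has its highest reading, 2903, in Control replicate 2.

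With all 4 arrays, no member passed an adjusted p under 0.05 (limma, Benjamini-Hochberg over all genes, 0% of which passed). The lowest adjusted p of a member was 0.873, and 3 of the 48 had an unadjusted p under 0.05. Those 3 also met a fold of 2, the pair of thresholds the study set for these arrays: Usp11 and Usp54 higher on arrays labelled Rhau KO (1.65% of all genes were) and Usp48 lower (1.64% of all genes). With each array centred on its median, which leaves Usp54 at 0.95 log2 units, the split was 1 higher and 1 lower. The groups did not overlap for 9 members in the higher direction, or 18.8% against 21.7% of all genes, and for 8 in the lower direction, or 16.7% against 14.6%. Both shares were near the background. The median log2 difference of the family was -0.09 with 19 members higher, beside 0.09 over all genes, of which 56.9% were higher. Without Control replicate 1 it was 0.02 with 27 members higher, beside 0.03 over all genes, of which 52.8% were higher.

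Without Control replicate 1, 2 members passed an adjusted p under 0.05 (limma, 0.819% of all genes did), and both were lower: Usp48 and Usp28. By both thresholds these 2 were lower (1.54% of all genes) and Usp11 was higher (2.96% of all genes). Of the 10 heat shock genes, 6 were lower by both thresholds in that comparison too. The lone Control in that comparison is replicate 2, the array with high heat shock transcripts, and its spread was taken from that of the arrays labelled Rhau KO.

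**Figure D2:**
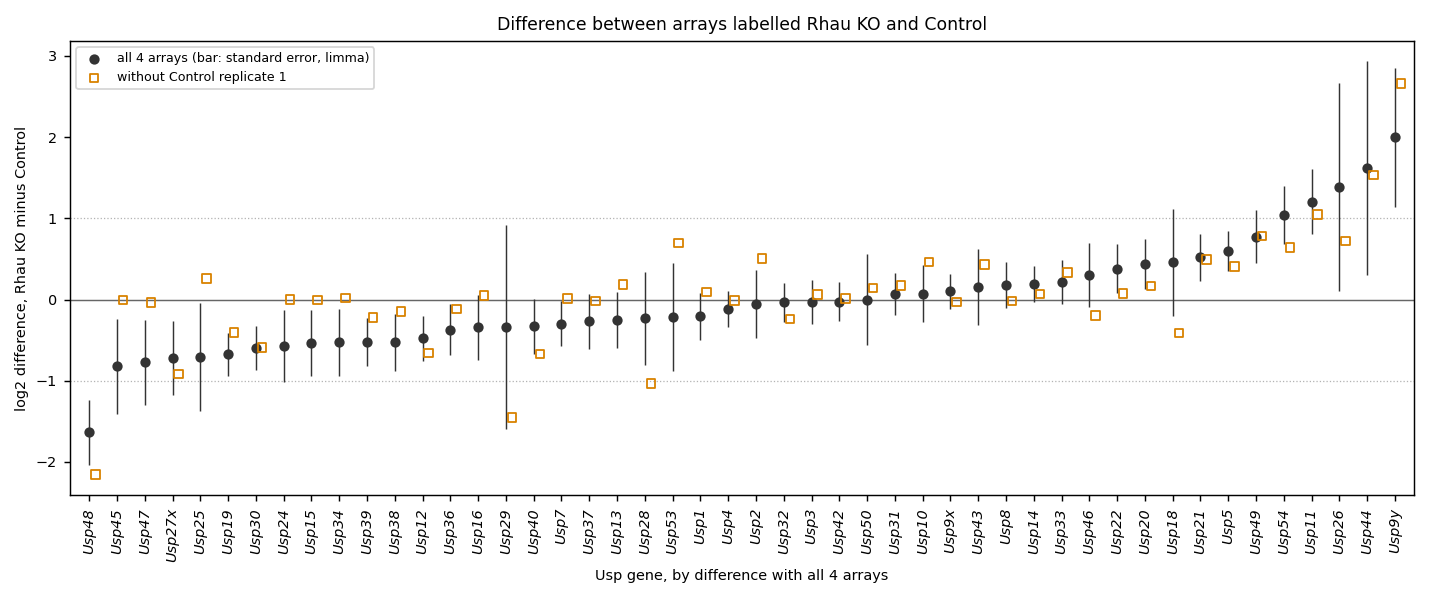
Log2 difference, Rhau KO minus Control, of the 48 genes with all 4 arrays (filled circles, bars show the standard error from limma) and without Control replicate 1 (open squares); dotted lines mark a fold of 2. Usp48 lies lowest both ways, at -1.64 and -2.16, and members such as Usp45 and Usp47 move to about 0 once Control replicate 1 is left out.

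Usp48, a nuclear protease known in human cells to act on the NF-κB subunit RelA and on histone H2A, had the smallest p of the family with all arrays. It read 670 and 633 on arrays labelled Rhau KO, with 1412 for Control replicate 1 and 2903 for Control replicate 2. Means were 651.7 ± 26.02 in arrays labelled Rhau KO and 2157 ± 1054 in arrays labelled Control (SD, n = 2 each), differing by -1.64 log2 units (standard error 0.40, adjusted p = 0.873 from limma). The groups did not overlap, and the gap between the Control arrays was itself over 2-fold. Its other probe sets ran the same way. One read 377 and 569 on arrays labelled Rhau KO against 689 and 1167 on arrays labelled Control, differing by -0.95 log2 units. The dimmest read 52.2 and 75.5 against 162 and 371, a difference of -1.97. On all 3 probe sets both arrays labelled Rhau KO were below both labelled Control, with Control replicate 2 the highest. The log2 difference of the brightest was -2.16 without Control replicate 1 (adjusted p = 0.0110 from limma) and -1.12 without Control replicate 2 (adjusted p = 0.00549). In the comparison without Control replicate 2 only the array high in skeletal muscle markers represents Control, and 22.5% of all genes passed an adjusted p under 0.05.

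Usp28, a nuclear member that stabilises MYC and binds 53BP1 in human cells, separated the Control arrays from each other and not the groups. It read 2197 and 2465 on arrays labelled Rhau KO, with 1567 for Control replicate 1 and 4772 for Control replicate 2. The arrays labelled Rhau KO thus lay between those labelled Control. Its log2 difference was -0.23 with all arrays (standard error 0.57), -1.04 without Control replicate 1 (adjusted p = 0.0350 from limma) and 0.57 without Control replicate 2 (adjusted p = 0.0294, again beside 22.5% of all genes). The direction turned with the Control array that was kept.

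Usp11 and Usp54 were the members higher by both thresholds. Usp11, an X-linked nuclear protease linked to BRCA2 and DNA repair, read 261 and 178 on arrays labelled Rhau KO and 83.9 and 104 on arrays labelled Control. The difference came to 1.21 log2 units (standard error 0.40), and 1.05 without Control replicate 1 (adjusted p = 0.873 and 0.326 from limma). The groups did not overlap, though on its single probe set the Control readings were about 100 or lower. Usp54, long regarded as lacking protease activity, read 859 and 830 on arrays labelled Rhau KO and 308 and 543 on arrays labelled Control. It differed by 1.05 log2 units (standard error 0.36) with all arrays, 0.64 without Control replicate 1 (adjusted p = 0.186) and 1.46 without Control replicate 2 (adjusted p = 0.00338, where 22.5% of all genes passed). The lone Control of that last value is replicate 1, in which Usp54 was over 2-fold below the median of the other arrays.

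Usp49, a histone H2B deubiquitinase, and Usp30, which sits in the outer membrane of mitochondria and opposes the removal of damaged ones, were the members whose Control arrays agreed most closely. Usp49 read 209 and 254 on arrays labelled Rhau KO and 135 and 134 on arrays labelled Control, differing by 0.78 log2 units (standard error 0.33). Usp30 read 249 and 268 on arrays labelled Rhau KO and 389 and 389 on arrays labelled Control, differing by -0.59 log2 units (standard error 0.27). With Control arrays so alike, leaving out either could change little. On its other probe set Usp30 read 168 and 213 against 256 and 300, and Usp49 read 55.7 and 41.4 against 31.3 and 34.0. Each gene thus had the same direction on both of its probe sets, with no overlap between the groups. Neither passed an adjusted p under 0.05 in limma with all arrays (adjusted p = 0.873 for each) or without Control replicate 1 (adjusted p = 0.379 for Usp49 and 0.381 for Usp30).

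**Figure D3:**
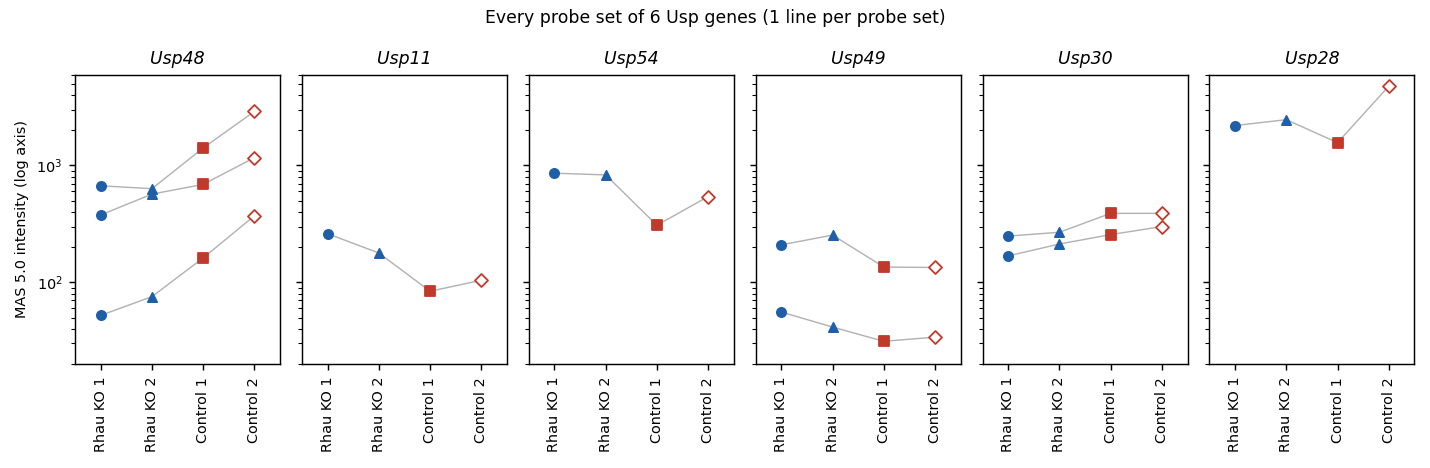
MAS 5.0 intensity (log axis, arbitrary units) of every probe set of 6 Usp genes on the 4 arrays; each line joins the readings of 1 probe set, arrays labelled Rhau KO are blue and those labelled Control red. All 3 probe sets of Usp48 and both of Usp30 are lower on arrays labelled Rhau KO, both probe sets of Usp49 are higher, and Usp28 peaks at 4772 in Control replicate 2.

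The 3 members that recycle ubiquitin or serve the proteasome were Usp5, Usp13 and Usp14. Usp5, which takes apart free ubiquitin chains, read 1349 and 1194 on arrays labelled Rhau KO and 734 and 956 on arrays labelled Control. The difference was 0.60 log2 units (standard error 0.25) and 0.41 without Control replicate 1, with no overlap between groups. Usp13, its close relative, read 2501 and 2765 against 4224 (Control replicate 1) and 2311 (Control replicate 2). Its direction turned, at -0.25 with all arrays and 0.19 without Control replicate 1. Usp14, which binds the proteasome and trims chains on arriving substrates, read 2292 and 2661 against 1974 and 2357, differing by 0.20 log2 units (0.07 without Control replicate 1). The dimmest of its 4 probe sets read 560 and 308 against 246 and 163, a difference of 1.05. Another read 1126 and 1107 against 1448 and 1001, a difference of -0.11, so the probe sets of Usp14 differed in size and in direction. None of the 3 passed an unadjusted p under 0.05 with all arrays.

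Of the 6 members placed at endosomes, the endoplasmic reticulum, the Golgi or mitochondria, 3 were higher and 3 lower, and none met both thresholds. Usp19, anchored in the endoplasmic reticulum, read 1476 and 1624 on arrays labelled Rhau KO and 2980 and 2047 on arrays labelled Control. In log2 units it differed by -0.67 (standard error 0.27), and -0.40 without Control replicate 1 (adjusted p = 0.873 and 0.274 from limma). A second probe set of Usp19 kept the direction at 721 and 737 against 1169 and 855, while 2 dimmer ones ran the other way. Usp20, which acts on receptor recycling and on partners of VHL, read 510 and 495 against 308 and 447, a difference of 0.44 without overlap. The difference of Usp20 was 0.17 without Control replicate 1. Its other probe sets, 3 in number, ranged from -1.32 to 2.52, and the one at 2.52 read 170 and 128 against 5.09 (Control replicate 1) and 131 (Control replicate 2). The endosomal Usp8, the Golgi member Usp32 and Usp33, a relative of Usp20, had log2 differences of 0.17, -0.04 and 0.21, and each differed by less than the gap between Control replicates. Without Control replicate 1 they stood at -0.02, -0.24 and 0.34.

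Of the 18 nuclear members, which include the histone, DNA damage, p53 and cell cycle enzymes, 6 were higher with all arrays and 12 without Control replicate 1. Usp22, the deubiquitinase of the SAGA coactivator, read 966 and 1062 on arrays labelled Rhau KO and 627 and 964 on arrays labelled Control, differing by 0.38 log2 units (0.07 without Control replicate 1). Usp21, a histone H2A deubiquitinase, read 416 and 342 against 258 and 269, a difference of 0.52 (0.49 without Control replicate 1). Usp21 thus held its size, and Usp22 had its gap mostly to Control replicate 1. Usp7, which controls p53 through MDM2, read 2414 and 2420 against 3666 (Control replicate 1) and 2399 (Control replicate 2). Its difference was -0.30 with all arrays and 0.01 without Control replicate 1. Of the 7 probe sets of Usp7, 6 were lower with all arrays, 4 of them without overlap, and 1 was higher. The second brightest read 1438 and 1423 against 2088 and 1881, at -0.47 with all arrays and -0.40 without Control replicate 1. Usp24 and Usp45, also nuclear and over 100 in mean, are described below. The remaining ones, Usp1, Usp3, Usp16, Usp36, Usp37 and Usp42, had log2 differences from -0.37 (Usp36) to -0.02 (Usp42) with all arrays. The 2 dimmer probe sets of Usp36 ran the other way without overlap, at 0.10 and 0.61. Usp1 and Usp37 differed by 0.09 and -0.02 without Control replicate 1.

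Among the 14 members grouped under signalling, Usp48 was the only one past both thresholds. Usp12, which works with the WD40 protein Wdr48, read 465 and 572 on arrays labelled Rhau KO and 632 and 813 on arrays labelled Control, differing by -0.48 log2 units (-0.66 without Control replicate 1). Its relative Usp46 read 1076 and 1010 against 596 (Control replicate 1) and 1194 (Control replicate 2), a difference of 0.31 that became -0.20 without Control replicate 1. The second probe set of Usp46 ran the other way, at 386 and 377 against 617 (Control replicate 1) and 282 (Control replicate 2). It gave -0.13 with all arrays and 0.44 without Control replicate 1. Usp2, known for a part in circadian timing, read 6560 and 6985 against 10435 (Control replicate 1) and 4770 (Control replicate 2). The log2 difference was -0.06 with all arrays and 0.51 without Control replicate 1 (adjusted p = 0.119 from limma), and its second probe set gave -0.18 and 0.37. Of 12 clock genes examined beside it, none met both thresholds with all arrays or without Control replicate 1. Usp18, the interferon-induced enzyme that removes ISG15, read 261 and 353 against 121 (Control replicate 1) and 404 (Control replicate 2), and likewise turned, at 0.46 with all arrays and -0.41 without Control replicate 1. Usp4, Usp10 and Usp31 differed by -0.12, 0.07 and 0.06 log2 units, all inside the spread of the Control arrays, and by -0.01, 0.46 and 0.17 without Control replicate 1.

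Usp39, a splicing factor that has lost protease activity, read 969 and 866 on arrays labelled Rhau KO and 1629 and 1067 on arrays labelled Control, differing by -0.53 log2 units (-0.22 without Control replicate 1). Its probe set carries the suffix the maker gives to probes that may match other transcripts, and its second probe set gave -0.08. Usp53, which is found at tight junctions, read 306 and 284 against 643 (Control replicate 1) and 182 (Control replicate 2), so that the groups overlapped. Of the less characterised members, Usp38 read 374 and 410 against 732 and 433, and Usp40 read 440 and 394 against 413 and 662. Usp38 differed by -0.52 log2 units (-0.15 without Control replicate 1) and Usp40 by -0.33 (-0.67 without Control replicate 1). The 3 dimmer probe sets of Usp40 ran the other way with all arrays, at 0.02, 0.50 and 0.72. Without Control replicate 1 they stood at -0.23, 0.51 and -0.32.

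Control replicate 1 was the highest of the 4 arrays for 20 of the 48 members, or 41.7%, against 29.9% of all genes. The share was not particular to the family. It was 48.5% of 33 genes of other deubiquitinase families, 57.1% of 28 E1 and E2 enzymes and 31.6% of 19 partner proteins. In 8 members it lay over 2-fold above the median of the other arrays (12.5% of all genes did). Usp25 read 1728 and 1613 on arrays labelled Rhau KO, with 5285 for Control replicate 1 and 1397 for Control replicate 2. Usp45, an enzyme of nucleotide excision repair, read 635 and 649 against 1997 and 643. Usp47, which acts in base excision repair, read 4005 and 3807 against 11093 and 4002. In these 3 the arrays labelled Rhau KO and Control replicate 2 stood together and Control replicate 1 alone was high, each over 2-fold above the median of the others. Usp24 (2.22-fold), Usp34 of the Wnt pathway (2.14-fold), Usp15 of TGF-β signalling (2.09-fold) and Usp53 (2.26-fold) belonged here too, and the eighth was Usp48. These folds are of the brightest probe set, and other probe sets did not all follow. The other of Usp25 read 173 and 124 against 191 and 184. Another of Usp34 read 269 and 256 against 164 (Control replicate 1) and 281 (Control replicate 2). With all arrays the 8 had log2 differences from -1.64 to -0.21. Without Control replicate 1, Usp45 was at -0.00, Usp47 at -0.04, Usp24 at 0.00, Usp15 at -0.01, Usp34 at 0.02, Usp25 at 0.26 and Usp53 at 0.70, while Usp48 was at -2.16. This is the array with skeletal muscle transcripts (Myh4 read 43654 in it and at most 80.4 in the others), whose part in these readings was not tested. In the other direction, Control replicate 1 was over 2-fold below the others for Usp54, Usp18 and Usp11 among members over 100 in mean and for 3 dim ones (18.5% of all genes were so low). For 16 members the direction of the difference turned when Control replicate 1 was left out, and 12 of them had been lower with all arrays. The share of all genes that turned was not taken.

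**Figure D4:**
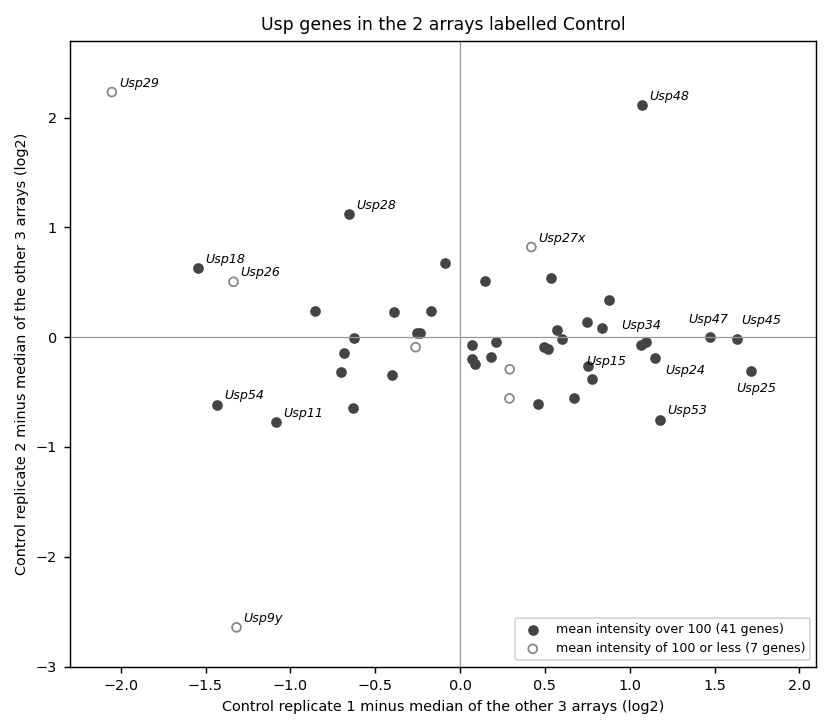
Difference of Control replicate 1 (horizontal) and of Control replicate 2 (vertical) from the median of the other 3 arrays, in log2 units, for each of the 48 genes; filled points have a mean intensity over 100. Usp25, Usp45 and Usp47 lie far to the right near 0 on the vertical axis, Usp28 lies high and to the left, and Usp48 is above the other arrays in both Control arrays.

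Probe sets of one gene often disagreed. Of the 36 members with 2 or more probe sets, 17 had the same direction on each and 19 did not. Usp9x, an X-linked protease with many substrates, had 7 probe sets. Its brightest read 1420 and 1411 on arrays labelled Rhau KO and 1207 and 1447 on arrays labelled Control, differing by 0.10 log2 units. The next read 1114 and 1010 against 2539 and 1068, a difference of -0.63, and another read 836 and 797 against 2326 and 848, a difference of -0.78. These 2 thus joined the pattern of Control replicate 1, and the brightest did not. Both were near 0 without Control replicate 1, at -0.01 and -0.06. A dimmer probe set of Usp9x was also high in Control replicate 1, at 190 and 229 against 478 and 174. A dim one read 33.4 and 28.8 against 99.6 and 65.4. Its difference was -1.38, and -1.08 without Control replicate 1. Of the 7 probe sets, 3 were higher and 4 lower with all arrays. Usp24 read 1028 and 1329 against 2587 (Control replicate 1) and 1168 (Control replicate 2) on its brightest. It was lower on its 3 probe sets over 100, at -0.57, -0.77 and -1.01, and its dim one gave 0.72. Without Control replicate 1 those 3 stood at 0.00, -0.15 and -0.73, and the dim one at -0.35. The probe set at -0.73 read 452 and 540 against 1209 and 818, without overlap. Usp31 read 439 and 455 against 461 and 397 on its brightest, a difference of 0.06, and its dimmest read 5.84 and 4.87 against 14.2 and 13.8, a difference of -1.40. The mean of its 4 gave -0.45. For 4 members the representative carries a suffix of shared or possibly cross-matching probes, namely Usp7, Usp38, Usp39 and Usp45.

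Dim members gave no level to compare. Usp43, Usp27x, Usp50, Usp29, Usp9y, Usp26 and Usp44 had a mean intensity of 100 or less, and their folds rest on readings near the floor of the arrays. Usp43 read 86.7 and 68.9 on arrays labelled Rhau KO and 84.4 and 57.3 on arrays labelled Control, and Usp50, an inactive member, read 50.9 and 31.1 against 44.0 and 35.9. Usp27x read 54.2 and 47.6 against 72.6 and 95.8, the one of these 3 whose groups did not overlap. Usp9y, on the Y chromosome, read 19.8 and 20.3 on arrays labelled Rhau KO and 7.95 and 3.17 on arrays labelled Control. Xist, the transcript of the inactive X, read 10547 and 11993 against 9198 and 13398, and the Y-linked Eif2s3y, Kdm5d and Uty read 37.3 or less on every array. The gap of Usp9y thus lies between readings at the level of other Y-linked genes in arrays with abundant Xist. Usp29, an imprinted gene, read 56.1 and 9.62 against 13.5 and 63.6, Usp44 read 3.04 and 22.4 against 2.53 and 2.85, and Usp26 read 19.0 and 3.47 against 1.95 and 4.93. The gap between the arrays labelled Rhau KO was wider than the difference between the groups for Usp43, Usp50, Usp29, Usp26 and Usp44, and narrower for Usp27x and Usp9y.

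The enzymes and partners around the family were counted in the same fit. Of the other deubiquitinases 15 of 33 were higher in mean, and of the E1 and E2 enzymes 11 of 28, beside 56.9% of all genes. Past both thresholds with all arrays, 1.65% of all genes were higher and 1.64% lower. Of 33 genes of other deubiquitinase families, Uchl1 was past both thresholds, at 200 and 284 on arrays labelled Rhau KO and 104 and 96.8 on arrays labelled Control (log2 difference 1.25, and 1.30 without Control replicate 1, adjusted p = 0.873 and 0.230 from limma). Uchl1 is a ubiquitin hydrolase best known from neurons. Otud7b, of the OTU family, read 505 and 496 against 1086 and 772, a difference of -0.87, under a fold of 2 (-0.62 without Control replicate 1). Without Control replicate 1, the log2 differences were -1.21 for Otud1 and -1.12 for the E2 enzyme Ube2e2. Otud1 read 1421 and 1557 against 1054 (Control replicate 1) and 3438 (Control replicate 2). Ube2e2 read 538 and 577 against 334 (Control replicate 1) and 1214 (Control replicate 2). For both genes the arrays labelled Rhau KO lay between those labelled Control. Of 28 measured E1 and E2 enzymes, Ube2g2, an E2 of degradation at the endoplasmic reticulum, was lower past both thresholds. It read 1588 and 1651 against 3813 and 3552, differing by -1.18 log2 units (standard error 0.19), and -1.13 without Control replicate 1 (adjusted p = 0.873 and 0.0256 from limma). Ube2d2a, a broadly used E2, read 8784 and 7917 against 4224 and 5303, a difference of 0.82 (0.65 without Control replicate 1). Of 19 measured partner proteins of the family none met both thresholds in either comparison, and 11 were higher in mean. Gmps, which binds Usp7, read 2125 and 2193 against 1051 and 1970, a difference of 0.59 (0.13 without Control replicate 1). Wdr48, which activates Usp1, Usp12 and Usp46, read 1165 and 1064 against 365 (Control replicate 1) and 1020 (Control replicate 2), a difference of 0.87 (0.13 without Control replicate 1). Stam, which binds Usp8, read 563 and 505 against 619 and 1013, a difference of -0.57 (-0.93 without Control replicate 1). The 4 ubiquitin genes had no probe set with a single symbol.

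Promoters were searched for a G-quadruplex pattern, since RHAU is known to unwind G-quadruplexes, stacked structures of guanines. Sequences are given for only some of the members with a match. RefSeq promoters (GRCm38.p6) were matched by symbol for 36 of the 48 members. The 250 bases before each start were searched on both strands for 4 runs of at least 3 G with 1 to 7 bases between runs. The pattern was found in 12 of the 36 (33.3%) and in 16.7% of all 32851 promoters. That larger set was not limited to genes on the array or matched to the members, and the difference in share was not tested. In the stretches below, capitals mark the runs of G, and each is written 5′ to 3′ on its own strand. They come from Usp2 (chr9:44084850-44084874, plus strand), Usp28 (chr9:48985297-48985319 and chr9:48985352-48985373, plus strand), Usp24 (chr4:106315992-106316010, plus strand), Usp45 (chr4:21776212-21776231, minus strand, opposite to the gene) and Usp34 (chr11:23306666-23306682, minus strand, opposite to the gene).
Usp2: GGGGcGGGGcgaaggcGGGGcGGGG
Usp28, far: GGGtGGGGagtgttGGGagcGGG
Usp28, near: GGGcGGGGGcGGGacgtgtGGG
Usp24: GGGGGaaGGGGtGGGcGGG
Usp45: GGGcGGGGGcgaGGGcGGGG
Usp34: GGGaGGGGtGGGtGGGG
The window of Usp28 held 2 stretches and that of Usp34 held 5, of which 1 is shown. Matches of Usp3, Usp7, Usp12, Usp15, Usp19, Usp32 and Usp37 are not shown. Among these, the groups did not overlap for Usp12 and Usp19, both lower on arrays labelled Rhau KO. The promoters of Usp48, Usp11, Usp54, Usp49 and Usp30 held no match in this window. The median log2 difference was -0.39 over the 12 members with the pattern and -0.06 over the 24 without it, and -0.00 and 0.10 without Control replicate 1. A match describes letters in a promoter and is not a site in an mRNA.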

How the data were processed

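RNA that the labels give as mouse heart RNA was hybridised to 4 Affymetrix Mouse 430 2.0 arrays. The intensities are MAS 5.0 values as the authors deposited them (Gene Spring 11.0, scanned with Command Console 3.1), linear and scaled to a 2% trimmed mean of 500.0 on every array. No detection calls were used, and 51.7% to 54.0% of probe sets read under 100. The number of arrays limits the precision.

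Of 45101 probe sets, 34945 outside the controls carry 1 gene symbol, 932 several and 9211 none. The brightest probe set per gene by mean log2 was kept (18193 genes). Log2 intensities, with no pseudocount, were fitted in limma 3.58.1 (R 4.3.3; lmFit, then eBayes with an intensity trend), Rhau KO over Control by label, and p-values were adjusted over all genes after Benjamini and Hochberg. The study's thresholds, a fold of 2 with an unadjusted p of 0.05, were also counted. An exact permutation test of 2 against 2 arrays cannot give a p under 0.333.

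Members, role groups and lists were chosen with earlier results of these data known. Values on every array were given for members past both thresholds, the 6 brightest, those with a Control array over 4-fold away from the others, those with opposed probe sets over 1 log2 unit, and the 2 smallest p of each role group (22 in all); further members were named after their values were seen. Alternatives were quantile normalization, median centring, every probe set singly, a pseudocount of 32, averaging the probe sets of a gene, restriction to the brighter genes, eBayes with no trend, the methods' t-test, the replicate block and leaving out each array. The code was tested on simulated arrays. Python 3.11.15, numpy 2.4.6, pandas 2.3.3 and matplotlib 3.10.9 were used.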

Additional observations from a re-analysis of the deposited data

How the results depend on the processing

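With all arrays no gene passed an adjusted p under 0.05 in limma or by the methods' t-test, and 785 had an unadjusted p under 0.05 in limma. The 599 genes past both thresholds became 167 in the brighter genes, 1149 with every probe set singly, 338 with a pseudocount of 32 and 351 by the methods' t-test, and 285 to 3282 when 1 array was left out, with 0 to 4097 at an adjusted p under 0.05. The 2 members higher past both thresholds became 1 in the brighter genes, 1 with median centring, 1 with the replicate block, 0 with a pseudocount of 32, 0 by the methods' t-test and 0 to 3 when 1 array was left out. The 1 lower member became 4 probe sets with every probe set singly, 0 by the methods' t-test and 0 to 8 when 1 array was left out. When either of the 2 arrays labelled Rhau KO was left out, no member was past both thresholds. The 8 lower members without Control replicate 2 rest on Control replicate 1 as the lone Control. Members with a higher mean were 49 of 122 probe sets counted singly. The median log2 difference of the family, -0.09, ran from -0.21 in the brighter genes to 0.02 without Control replicate 1, the one alternative that turned its sign. Same-numbered arrays did not deviate together (r = 0.006 across genes, which are not replicates), so the replicate numbers were not taken as pairs.

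Of the named members, Usp48, Usp11, Usp54, Usp49, Usp5 and Usp30 kept their direction under each alternative that gave them a value, which groups without overlap fix when an array is left out. Usp14, Usp20, Usp38, Usp39 and Usp47 kept theirs too, though Usp14 fell to 0.067 and Usp47 to -0.035 when 1 array was left out. Directions turned with the mean of all probe sets for Usp19 (0.23), Usp31 (-0.45), Usp40 (0.23) and Usp9x (-0.35), with median centring for Usp31 (-0.036) and with quantile normalization for Usp2 (0.0078). When 1 array was left out, log2 differences ranged from -0.68 to 0.19 for Usp13, -0.62 to 0.51 for Usp2, -1.15 to 0.00075 for Usp24, -1.04 to 0.57 for Usp28, -1.61 to 0.94 for Usp29, -0.046 to 0.17 for Usp31, -0.67 to 0.011 for Usp40, -0.60 to 0.011 for Usp7 and -0.031 to 0.23 for Usp9x. The cause was not tested. Depth of signal limits the 7 members with a mean of 100 or less.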

Other observations

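Transcripts with related symbols lie outside the family as defined here. Uspl1, which encodes a protease for the ubiquitin-like protein SUMO, read 871 and 817 on arrays labelled Rhau KO and 1406 and 1160 on arrays labelled Control. It differed by -0.60 log2 units with all arrays and -0.46 without Control replicate 1, and the groups did not overlap on its single probe set. Usp6nl, which encodes a GTPase-activating protein and no protease, had log2 differences of -0.18 to 0.01 on its 3 probe sets. On the brightest it read 347 and 240 against 318 and 335.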
